A study of Mus musculus with 15 samples.

Results

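The genes described here build ribosomes. They are 49 of the 24030 gene symbols quantified in mouse brown adipose tissue, 39 chosen because their symbols follow the naming of ribosome biogenesis factors (Rrp, Utp, Nop, Nol, Noc, Rpf and Polr1 followed by a number) and 10 chosen by name (Polr1a to Polr1e, Myc, Srm, Ncl, Npm1 and Fbl). The rule used symbols and no measured value, but it was set with earlier results of these data known. All 49 passed the filter on low counts. By known role they comprise 5 RNA polymerase I subunits, the regulator Myc with the polyamine enzyme Srm, 3 abundant nucleolar proteins, 4 proteins of small nucleolar ribonucleoproteins (snoRNPs), 19 small-subunit processome factors, the export factor Rrp12 and 13 large-subunit assembly factors. The remaining 2, Nol3 and Nol4l, carry a matching name but have no assigned role in making ribosomes.

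The study sequenced RNA in bulk from brown fat of mice in which DJ-1, the redox-sensitive protein encoded by Park7, was deleted in that tissue, and of flox mice without the deletion. The Cre driver, age and sex are not given in the sources used here. Mice were housed for 8 weeks at 29 °C or at room temperature. The 15 libraries form 4 groups: DJ-1 knockout (KO) at 29 °C with 3 libraries, flox controls (WT) at 29 °C with 4, KO at room temperature with 4, and WT at room temperature with 4. Replicates are separate samples in the labels, but nothing says that each is a different animal. The p-values below therefore rest on the variation among these samples, which may be technical.

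A ribosome begins in the nucleolus, where RNA polymerase I copies the ribosomal DNA repeats into a long precursor RNA. The small-subunit processome and the snoRNPs fold, modify and cut that precursor, and separate sets of assembly factors then mature the large and the small subunit before export to the cytoplasm. Myc, a transcription factor of growth, is a well-known activator of many of these genes. In brown fat, cold drives heat production, and housing near thermoneutrality removes most of that stimulus.

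To show what the promoters of these genes look like, RefSeq promoter sequences (GRCm38.p6) were matched by symbol for 38 of the 49 members, with 45 annotated starts. Each window ran from 250 bases before to 50 bases after the start, and both strands were searched. The E-box CACGTG, the sequence that Myc with its partner Max is known to bind, was present in 8 of the 45 windows (17.8%), against 7.15% of all 32851 promoter windows and 9.5% of the 14362 windows of genes tested. The ETS-type core CCGGAAG was present in 17 (37.8%), against 8.86% of all windows and 15.6% of those of tested genes. The exact string AAGATGG, part of the YY1 motif, was present in 0 of the 45. It was present in 6.34% of all windows and 6.56% of those of tested genes, and variants of that string were not searched. Starts of 1 gene share sequence, and a match is only a description of the letters. In the printed sequences, 120 bases that end just before the annotated start, 5′ to 3′, capitals mark CACGTG and CCGGAAG on either strand. They are shown for the 3 members with both motifs before a start, Nop2, Utp18 and Rpf2. Nop2 and Utp18 were among the genes higher in KO at 29 °C, and Rpf2 was higher in KO at both temperatures. CACGTG also lay within 250 bases before a start of Nol11, Rrp7a and Utp14b. Of these, Rrp7a was lower in KO at 29 °C, and neither genotype comparison called Nol11 or Utp14b. Whether the motifs bear on the genotype calls was not tested.
Nop2, chr6:125131763-125131882, plus strand: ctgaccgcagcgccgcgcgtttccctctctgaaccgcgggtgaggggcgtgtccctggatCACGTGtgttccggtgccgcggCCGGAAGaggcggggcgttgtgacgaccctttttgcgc
Utp18, chr11:93885767-93885886, minus strand: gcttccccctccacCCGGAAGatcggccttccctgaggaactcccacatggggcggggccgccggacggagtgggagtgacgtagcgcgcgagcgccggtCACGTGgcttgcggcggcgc
Rpf2, chr10:40247040-40247159, minus strand: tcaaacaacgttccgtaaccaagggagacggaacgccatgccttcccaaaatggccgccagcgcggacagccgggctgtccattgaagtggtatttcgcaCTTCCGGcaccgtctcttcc
The E-box begins 60 bases before the start of Nop2 and 20 before that of Utp18, and the ETS core 38 and 106 bases before. Rpf2 has more than 1 annotated start. The window printed for it lies before the outermost, where the ETS core begins 20 bases upstream, and its E-box lies between the starts, 26 bases before the inner one. The printed motifs do not overlap each other.

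Library depth was 23977400 to 26789200 estimated counts, except for KO replicate 1 at 29 °C with 38801000. Levels below are CPM (counts scaled to library size, with TMM factors), and effects are log2 fold changes ± SE from 1 edgeR model over all libraries. Park7 lay at 25.4 to 35.2 CPM in KO and 104 to 128 CPM in WT at 29 °C, and at 25.0 to 34.1 CPM in KO and 108 to 112 CPM in WT at room temperature. All 7 brown adipocyte markers were detected in every group, and their summed level was 16060 to 19610 CPM in KO and 9997 to 10950 CPM in WT at 29 °C, against 16490 to 26130 CPM in KO and 22380 to 23430 CPM in WT at room temperature. Ucp1, the heat-producing uncoupling protein, lay at 6170 to 8596 CPM in KO and 838.9 to 1277 CPM in WT at 29 °C. Summed levels of the other marker lists also differed at 29 °C. The 8 endothelial markers reached 606.5 to 789.8 CPM in KO and 1352 to 1837 CPM in WT, and the 8 lymphocyte markers 20.3 to 28.6 CPM in KO and 4.88 to 7.51 CPM in WT. The 6 macrophage markers lay at 239 to 315 CPM in KO and 126 to 220 CPM in WT. Singly, 2 of them were higher and 1 lower in KO at an adjusted p under 0.05, with a median log2 fold change of 0.04. The 6 fibroblast markers lay at 847 to 1044 CPM in KO and 459 to 897 CPM in WT. The 6 markers of dividing cells overlapped, at 12 to 27.8 CPM in KO and 15.5 to 26.8 CPM in WT at 29 °C. Their level was 1.55 to 4.27 CPM in KO and 2.32 to 3.06 CPM in WT at room temperature. The 8 skeletal muscle markers summed to 494.2 and 1682 CPM in KO replicates 2 and 3 and to 1159 CPM in WT replicate 2 at 29 °C, against at most 10.01 CPM in every other library. The part of these differences in the results below was not tested, and in bulk tissue fewer cells of a type and less RNA per cell cannot be told apart.

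The question of the genotype comparison is what loss of DJ-1 changes in brown fat at each temperature. At 29 °C, 17 of the 49 members were higher in KO than in WT and 2 were lower at an adjusted p under 0.05. That is 34.7% and 4.08% of the members, against 24.7% and 20% of all 15083 genes tested. The changes were small for this comparison. The members' median absolute log2 fold change was 0.24, against 0.41 over all genes, and 5 members (Myc, Polr1a, Polr1d, Rpf2 and Srm, 10.2%) were called and moved over 1.5-fold, against 27.7% of all genes. Their median signed log2 fold change was 0.17, against 0.04 over all genes, and 32 members lay above 0 (65.3%, against 52.9%). In 13 members all KO libraries exceeded all WT libraries (26.5%, against 23.5% of all genes), and in 4 (Nol4l, Rrp1, Rrp7a and Utp23) all lay below (8.16%, against 19.6%). The count of 17 was 11 without KO at 29 °C replicate 1, and 4 (Nop10, Polr1d, Rpf2 and Srm) without the 3 libraries with muscle transcripts. That last setting leaves 1 KO library at 29 °C, assumed to vary like the other groups, and gave a members' median of 0.06. The count of 2 lower members was 1 without KO replicate 1 or 2 or WT replicate 3 or 4 at 29 °C.

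At room temperature the same comparison gave 2 higher members, Rpf2 and Rrp8 (4.08%, against 0.053% of all genes), and 0 lower (against 0.186%) by edgeR. At an unadjusted p under 0.05 the numbers were 15 higher (30.6%, against 6.01% of all genes) and 1 lower (2.04%, against 5.12%). DESeq2 called 4 higher, adding Nop2 and Polr1a, and limma-voom 1, Rrp8, and neither called a lower member. A log2 fold change above 0 was measured for 41 members (83.7%, against 52% of all genes). In 10 members every KO library lay above every WT library (20.4%, against 3.94% of all genes): Polr1a, Polr1b, Polr1c, Polr1e, Nol10, Nop14, Nop2, Rpf2, Rrp12 and Rrp8. In 0 members did all KO libraries lie below (against 4.28%). The members' median log2 fold change was 0.15, against 0.01 over all genes. KO replicates 2 and 4 held 4953 and 4778 CPM of Ucp1, against 9644 and 8630 CPM in KO replicates 1 and 3 and 7689 to 9992 CPM in WT. Without KO replicates 2 and 4, the median was 0.17, against -0.003 over all genes, and 46 members had a log2 fold change above 0. Neither Rpf2 nor Rrp8 was called in that setting.

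**Figure D1:**
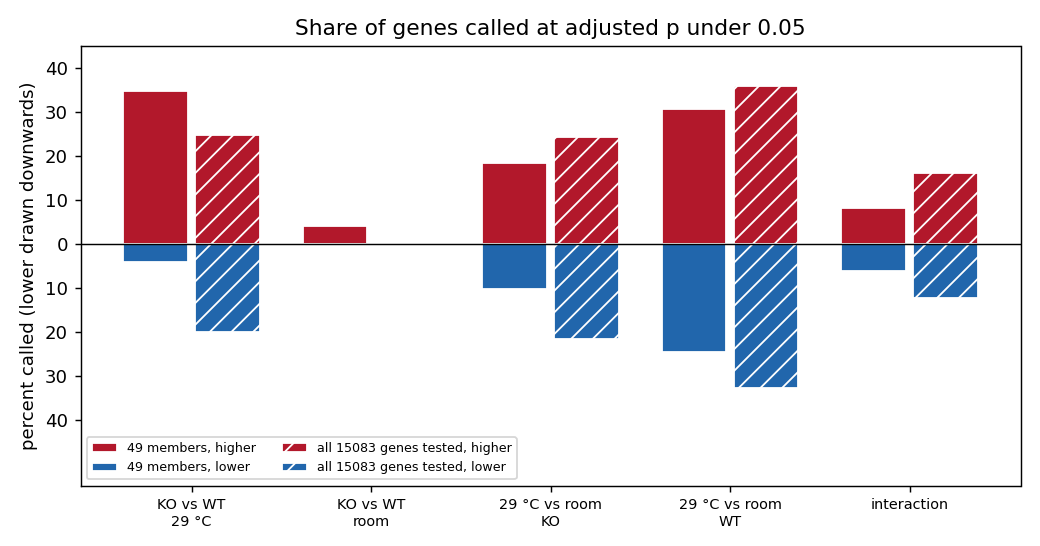
Share of genes called at an adjusted p under 0.05 in each of the 5 comparisons, in percent, for the 49 members (plain bars) and all 15083 genes tested (hatched bars); red bars upwards are higher and blue bars downwards lower in the first-named group. The members' shares were 34.7% higher and 4.08% lower for KO against WT at 29 °C; at room temperature the hatched bars (0.053% and 0.186%) are too short to see.

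The largest subunit of RNA polymerase I, Polr1a, measured 21.5, 25.7 and 24 CPM in KO and 14.2, 16.2, 15.5 and 17.3 CPM in WT at 29 °C. Every KO library lay above every WT library, and the gene rose (0.59 ± 0.11, adjusted p = 0.00038). At room temperature the values were 24.4, 28.7, 26.5 and 22.0 CPM in KO and 18.8, 20.1, 20.2 and 17.2 CPM in WT, again with no overlap. That difference did not pass (0.41 ± 0.10, adjusted p = 0.114). Polr1e, a smaller polymerase I subunit, averaged 6.29 ± 0.494 CPM in KO and 4.33 ± 0.398 CPM in WT at 29 °C (SD), and rose (0.54 ± 0.14, adjusted p = 0.00446). It averaged 5.91 ± 0.555 CPM in KO and 4.17 ± 0.501 CPM in WT at room temperature (0.50 ± 0.13, adjusted p = 0.136). Polr1c, shared with RNA polymerase III, rose at 29 °C (0.31 ± 0.09, adjusted p = 0.0109), with 24.8 ± 1.36 CPM in KO and 20.1 ± 1.16 CPM in WT. Its call was lost without KO replicate 1 (adjusted p = 0.056), and without the libraries with muscle transcripts the 3 calls of Polr1a, Polr1c and Polr1e were lost (adjusted p = 0.0969, 0.133 and 0.0922).

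Polr1d, the other subunit that polymerases I and III share, had the largest genotype difference of the 5 subunits at 29 °C. It lies on chromosome 5 at 147077050 to 147111597 (GRCm38). At 29 °C it measured 129.9, 124 and 118 CPM in KO and 72.6, 73.5, 64.8 and 70.5 CPM in WT, 1.76-fold higher (0.82 ± 0.09, adjusted p = 4.45e-06). In a two-sided exact permutation test on its own it gave p = 0.0286, which 3 against 4 libraries cannot undercut. At room temperature the genotypes overlapped, with 188, 159.8, 149 and 151 CPM in KO and 149, 152, 159 and 162 CPM in WT (0.06 ± 0.08, adjusted p = 0.852). Both genotypes were lower at 29 °C than at room temperature, KO 0.766-fold (-0.39 ± 0.09, adjusted p = 0.00273) and WT 0.452-fold (-1.14 ± 0.09, adjusted p = 9.74e-09). The genotype effect differed between temperatures (interaction, log2 0.76 ± 0.12, adjusted p = 0.000364), and the 29 °C call and the interaction passed under every alternative tried. The housing call in KO was lost without the libraries with muscle transcripts (-0.40, adjusted p = 0.0605).

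The second-largest subunit, Polr1b, which forms the active centre with Polr1a, behaved otherwise. It measured 12.7, 13.0 and 13.8 CPM in KO and 13.8, 13.4, 14.3 and 16.6 CPM in WT at 29 °C, where the groups overlapped (-0.14 ± 0.11, adjusted p = 0.312). At room temperature it measured 10.7, 12.4, 11.4 and 11.7 CPM in KO and 7.36, 9.40, 9.45 and 8.79 CPM in WT, every KO library above every WT library (0.40 ± 0.10, adjusted p = 0.135). In WT it was 1.66-fold higher at 29 °C than at room temperature (0.73 ± 0.10, adjusted p = 1.12e-05), and in KO it did not pass (0.18 ± 0.11, adjusted p = 0.183). The interaction was -0.55 ± 0.15 (adjusted p = 0.0135), and without KO at room temperature replicates 2 and 4 it was no longer called (-0.48, adjusted p = 0.0643). In WT, Polr1a and Polr1c were lower at 29 °C by small amounts (-0.27 ± 0.10 and -0.23 ± 0.08, adjusted p = 0.0247 and 0.0234). Of these, the Polr1a call was lost without WT at 29 °C replicate 1 or 3 or WT at room temperature replicate 2 or 3 (adjusted p = 0.0525 to 0.081), and the Polr1c call without WT at 29 °C replicate 2 or WT at room temperature replicate 3 (0.0833 and 0.0561).

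**Figure D2:**
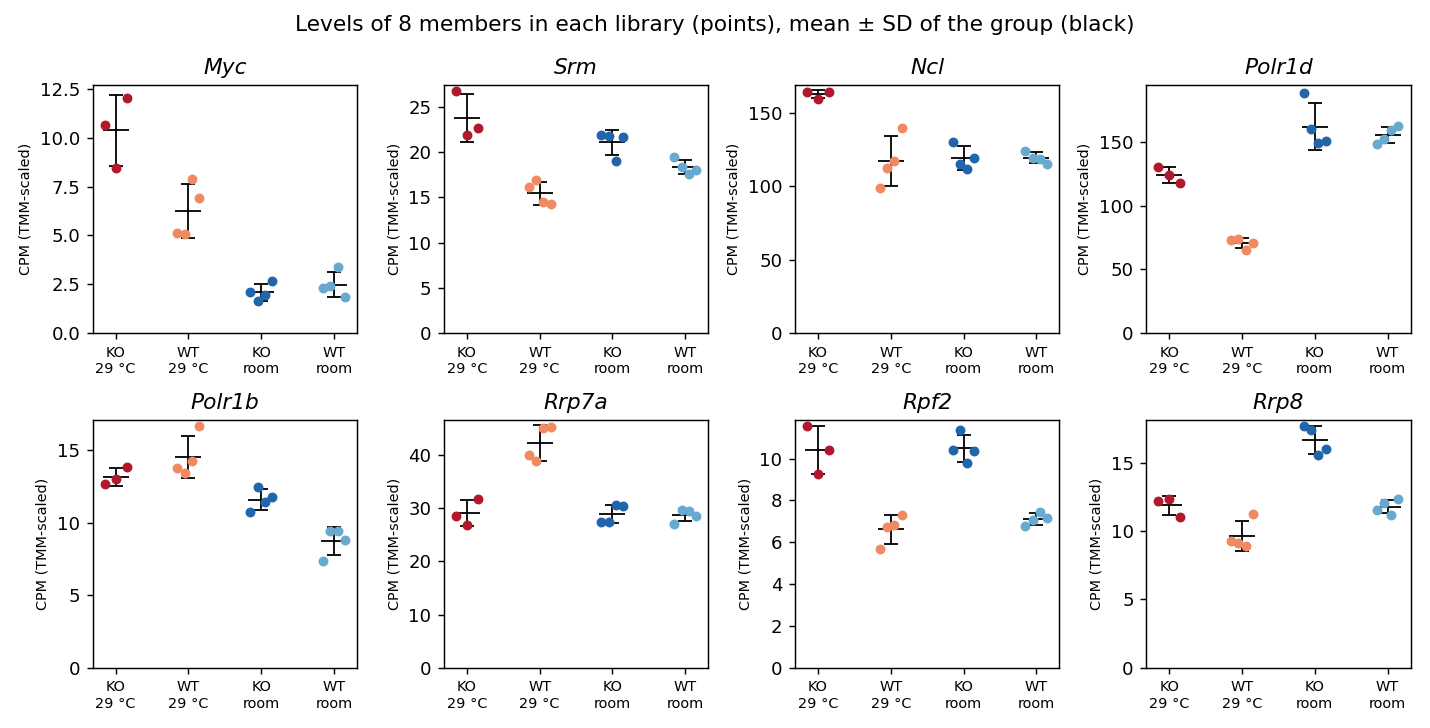
Levels in CPM (TMM-scaled, vertical axes from 0) of 8 members in each of the 15 libraries, as points, with group mean ± SD in black; groups run KO and WT at 29 °C, then KO and WT at room temperature. Polr1d sits at 118 to 129.9 CPM in KO and 64.8 to 73.5 CPM in WT at 29 °C, whereas its genotypes overlap at room temperature; Rpf2 is higher in KO at both temperatures.

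Myc had the largest housing response of the 49 members. It measured 10.7, 8.45 and 12 CPM in KO and 5.13, 5.05, 7.88 and 6.94 CPM in WT at 29 °C, and 2.11, 1.64, 1.93 and 2.68 CPM in KO and 2.32, 2.40, 3.36 and 1.86 CPM in WT at room temperature. All 7 libraries at 29 °C lay above all 8 at room temperature, and at 29 °C the genotypes did not overlap. The gene was 4.95-fold higher at 29 °C in KO (2.31 ± 0.22, adjusted p = 1.9e-06) and 2.51-fold higher in WT (1.33 ± 0.21, adjusted p = 3.39e-05). KO was 1.66-fold higher than WT at 29 °C (0.73 ± 0.21, adjusted p = 0.00986), and the room-temperature difference did not pass (-0.25 ± 0.22, adjusted p = 0.723). Its raw counts ran from 39 to 448 per library. The 29 °C genotype call was lost without the libraries with muscle transcripts (0.60, adjusted p = 0.163). The interaction of 0.98 ± 0.30 (adjusted p = 0.0242) was lost in that setting (0.86, adjusted p = 0.134). It was also lost without KO at 29 °C replicate 1 or 3, KO at room temperature replicate 3 or WT at room temperature replicate 3 (0.80 to 0.96, adjusted p = 0.0518 to 0.0596). Markers of dividing cells were also higher at 29 °C in both genotypes, as given above, and their part in the Myc values was not tested.

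Srm makes spermidine, a polyamine that growing cells need, and is a known target of Myc. It measured 26.8, 21.9 and 22.6 CPM in KO and 16.1, 16.9, 14.5 and 14.2 CPM in WT at 29 °C. The groups did not overlap and Srm was 1.54-fold higher in KO (0.62 ± 0.10, adjusted p = 9.88e-05), a call kept under every alternative tried. At room temperature it averaged 21.1 ± 1.38 CPM in KO and 18.4 ± 0.813 CPM in WT (0.20 ± 0.09, adjusted p = 0.437). Unlike Myc, Srm was lower at 29 °C than at room temperature in WT (-0.25 ± 0.09, adjusted p = 0.0229), and in KO the housing difference did not pass (0.17 ± 0.10, adjusted p = 0.154). The WT housing call was lost without WT at 29 °C replicate 3 or 4 or WT at room temperature replicate 1 (adjusted p = 0.0605 to 0.0658). The interaction was 0.42 ± 0.13 (adjusted p = 0.0257), lost without KO at 29 °C replicate 1, KO at room temperature replicate 3 or WT at room temperature replicate 1 (0.33 to 0.40, adjusted p = 0.0538 to 0.0881).

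Of the abundant nucleolar proteins, nucleolin (Ncl), which binds nascent ribosomal RNA, was tight in KO at 29 °C at 164, 159 and 164 CPM, against 98.4, 112, 117 and 139 CPM in WT. The groups did not overlap (0.48 ± 0.10, adjusted p = 0.00105). At room temperature they did, with 130.2, 115, 112 and 119 CPM in KO and 124, 119, 118 and 115 CPM in WT (adjusted p = 0.997). Ncl was 1.37-fold higher at 29 °C in KO (0.45 ± 0.10, adjusted p = 0.00161) and did not pass in WT (-0.03 ± 0.09, adjusted p = 0.79). The interaction was 0.48 ± 0.14 (adjusted p = 0.0148), lost without KO at room temperature replicate 3 (0.40, adjusted p = 0.0552) or without replicates 2 and 4 of that group (0.46, adjusted p = 0.0581). Without the libraries with muscle transcripts, the genotype call at 29 °C, the housing call in KO and the interaction were lost (adjusted p = 0.0839, 0.084 and 0.156).

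Nucleophosmin (Npm1), a histone and ribosome chaperone of the nucleolus, measured 135, 113 and 125 CPM in KO and 82.1, 92.9, 105 and 126 CPM in WT at 29 °C, with WT replicate 4 inside the KO range (0.29 ± 0.12, adjusted p = 0.0598). It averaged 85.1 ± 6.95 CPM in KO and 90.3 ± 4.53 CPM in WT at room temperature. It was 1.46-fold higher at 29 °C in KO (0.55 ± 0.12, adjusted p = 0.00169) and did not pass in WT (0.17 ± 0.11, adjusted p = 0.19). Nolc1, a chaperone of snoRNPs, was at 42.8 ± 3.95 CPM in KO and 43.1 ± 6.64 CPM in WT at 29 °C and at 50.5 ± 5.19 CPM in KO and 43.9 ± 1.2 CPM in WT at room temperature, and no comparison called it.

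The snoRNPs use guide RNAs to place chemical marks on ribosomal RNA. Nop56 and Nop58, core proteins of the box C/D class that places methyl groups, were called by housing in both genotypes and in neither genotype comparison. Nop56 measured 29.4, 34.3 and 35 CPM in KO and 30.4, 36, 36.9 and 38.5 CPM in WT at 29 °C, and 20.2, 17.7, 22.8 and 16.7 CPM in KO and 16.8, 16.8, 20.5 and 15.8 CPM in WT at room temperature. The temperatures did not overlap in either genotype. It was 1.70-fold higher at 29 °C in KO (0.76 ± 0.12, adjusted p = 0.000129) and 2.03-fold higher in WT (1.02 ± 0.12, adjusted p = 9.95e-07). Its genotype differences were -0.11 ± 0.12 at 29 °C and 0.15 ± 0.12 at room temperature. Nop58 was 1.74-fold higher at 29 °C in KO (0.80 ± 0.21, adjusted p = 0.00658) and 1.53-fold higher in WT (0.62 ± 0.20, adjusted p = 0.0122). Its KO call was lost without the libraries with muscle transcripts (0.63, adjusted p = 0.147). Introns of Nop56, Nop58 and Ncl carry small nucleolar RNA genes, and annotated exons of each overlap at least 1 such gene.

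Fibrillarin (Fbl), the methyltransferase that works with Nop56 and Nop58, was not called in any comparison. It averaged 22.2 ± 2.08 CPM in KO and 21.8 ± 2.56 CPM in WT at 29 °C and 24 ± 3.16 CPM in KO and 24.1 ± 1.16 CPM in WT at room temperature, with log2 fold changes from -0.15 to 0.03 over the 4 pairwise comparisons. Nop10, of the box H/ACA class that makes pseudouridine, differed from them. It measured 72.7, 64.0 and 58.5 CPM in KO and 56.2, 52.3, 51.8 and 51.4 CPM in WT at 29 °C (0.30 ± 0.09, adjusted p = 0.0106). In WT it was lower at 29 °C than at room temperature (-0.46 ± 0.08, adjusted p = 0.0001), where it averaged 74.4 ± 5.16 CPM in KO and 72.8 ± 3.02 CPM in WT. The genotype call rested on KO at 29 °C replicate 1, without which it was 0.21 (adjusted p = 0.0789).

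Of the 19 small-subunit processome factors, 3 rose in KO at 29 °C (Nol6, Rrp36 and Utp18) and 2 fell (Rrp7a and Utp14a), with a median of 0.08. Of all genes, 24.7% were higher and 20% lower. The factor Rrp7a measured 28.5, 26.9 and 31.8 CPM in KO and 39.9, 38.9, 45.1 and 45.2 CPM in WT at 29 °C, and 27.5, 27.3, 30.5 and 30.4 CPM in KO and 27.1, 29.6, 29.5 and 28.4 CPM in WT at room temperature. WT at 29 °C stood above the other 3 groups, which overlapped one another. The log2 fold change was -0.54 ± 0.09 between genotypes at 29 °C (adjusted p = 0.000161) and 0.56 ± 0.08 between temperatures in WT (adjusted p = 1.61e-05). It was 0.01 in both remaining pairwise comparisons, and the interaction was -0.55 ± 0.12 (adjusted p = 0.00325). These 3 calls passed under every alternative tried except the 1.5-fold limit, which none of them reached. Exons of Serhl on the other strand cover 12.5% of the exonic bases of Rrp7a, and the sources used here do not say whether counting used strand, so a part of its reads may belong to that gene.

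Utp14a, an activator of a processome helicase, was higher at 29 °C in both genotypes, averaging 13.7 ± 2.16 CPM in KO and 19.4 ± 3.32 CPM in WT at 29 °C and 9.43 ± 2.18 CPM in KO and 9.52 ± 1.03 CPM in WT at room temperature. The housing effect was 1.03 ± 0.16 in WT (adjusted p = 3.07e-05) and 0.53 ± 0.17 in KO (adjusted p = 0.0188). The KO housing call was lost without KO at 29 °C replicate 3 or KO at room temperature replicate 2 or 4 (adjusted p = 0.0548 to 0.111) and without the libraries with muscle transcripts (0.519). At 29 °C it was lower in KO than in WT (-0.51 ± 0.17, adjusted p = 0.0234), a call lost without KO replicate 1 or 2 or WT replicate 3 or 4 (adjusted p = 0.0555 to 0.113). Its retrogene copy Utp14b lay between 1.90 and 4.72 CPM in every library and was not called in any comparison. Reads of the copies may be split between them, so both values are uncertain.

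Nol6, the processome factor that binds nascent precursor RNA, was lower at 29 °C in both genotypes. It measured 25.5, 27.1 and 30.1 CPM in KO and 21.5, 22.5, 19.6 and 20.1 CPM in WT at 29 °C, and 39.6, 44.9, 38.9 and 42.0 CPM in KO and 35.5, 41.1, 35.5 and 34.2 CPM in WT at room temperature. The temperatures did not overlap, at -0.59 ± 0.09 in KO (adjusted p = 0.000116) and -0.80 ± 0.09 in WT (adjusted p = 5.24e-07). At 29 °C KO lay above WT in every library (0.40 ± 0.09, adjusted p = 0.00257), a call lost without the libraries with muscle transcripts (0.25, adjusted p = 0.194). Utp18 measured 17.6, 17.1 and 16.5 CPM in KO and 8.91, 10.3, 10.9 and 17.2 CPM in WT at 29 °C, where WT replicate 4 lay inside the KO range (0.53 ± 0.16, adjusted p = 0.0141). That call was lost without the libraries with muscle transcripts (adjusted p = 0.217). Rrp36 rose less (0.30 ± 0.11, adjusted p = 0.0379) and lost its call without any 1 of 6 libraries, KO replicate 1 or 2, WT replicate 1, 3 or 4 at 29 °C or KO at room temperature replicate 3 (0.24 to 0.32, adjusted p = 0.0544 to 0.153). Utp3 was higher at 29 °C in both genotypes (0.52 ± 0.11 in KO, adjusted p = 0.00146, and 0.34 ± 0.10 in WT, adjusted p = 0.00878), and its KO call was lost in the same setting (adjusted p = 0.17).

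Between temperatures, 3 of the 19 processome factors were higher at 29 °C in KO (Utp14a, Utp15 and Utp3) and 2 lower (Nol6 and Nol11), and in WT 7 were higher and 4 lower (Nol6, Nol11, Rrp36 and Utp18). The shares of all genes were 24.3% and 21.7% in KO and 35.9% and 32.8% in WT. Beyond those described above, the WT increases were Rrp9, a protein of the U3-type snoRNP (0.41 ± 0.10, adjusted p = 0.00169), Utp23 (0.44 ± 0.12, adjusted p = 0.00503), Noc4l (0.35 ± 0.12, adjusted p = 0.0173) and Utp15 (0.39 ± 0.14, adjusted p = 0.0212). Utp15 and Nol11, which sit together in the processome, moved in opposite directions. Utp15 averaged 10.7 ± 1.79 CPM in KO and 11.1 ± 1.33 CPM in WT at 29 °C, and 8.09 ± 1.45 CPM in KO and 8.52 ± 0.657 CPM in WT at room temperature. Nol11 averaged 17.0 ± 1.36 CPM in KO and 14.8 ± 2.30 CPM in WT at 29 °C, and 21.5 ± 1.29 CPM in KO and 18.9 ± 1.71 CPM in WT at room temperature. The KO housing call of Nol11 (-0.33 ± 0.12, adjusted p = 0.0303) was lost without KO at 29 °C replicate 3 or KO at room temperature replicate 2 (adjusted p = 0.124 and 0.0754), and that of Utp15 (0.40 ± 0.15, adjusted p = 0.0398) without either of them or without KO at room temperature replicate 1 or 4 (0.0537 to 0.235). In WT, the Utp15 call was lost without WT at 29 °C replicate 3 or WT at room temperature replicate 1 or 3 (adjusted p = 0.0534 to 0.0618), and the Noc4l call without WT at room temperature replicate 4 (0.0528). The WT housing call of Utp18 (-0.38 ± 0.15, adjusted p = 0.0345) was lost without WT at 29 °C replicate 1, 2 or 3 or WT at room temperature replicate 2, 3 or 4 (adjusted p = 0.0538 to 0.12).

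Of the 13 large-subunit assembly factors, 5 rose in KO at 29 °C (Rpf2, Nop2, Nol8, Rrp8 and Nop16) and 0 fell by edgeR, and 2 rose in KO at room temperature (Rpf2 and Rrp8). The shares of all genes were 24.7% higher and 20% lower at 29 °C and 0.053% higher at room temperature. Rpf2, which helps to place the smallest ribosomal RNA in the large-subunit precursor, lies on chromosome 10 at 40223246 to 40247036 (GRCm38). It measured 11.6, 9.24 and 10.4 CPM in KO and 5.65, 6.71, 6.81 and 7.30 CPM in WT at 29 °C, and 10.4, 11.3, 9.79 and 10.4 CPM in KO and 6.78, 7.09, 7.43 and 7.14 CPM in WT at room temperature. All 7 KO libraries lay above all 8 WT libraries. The genotype effect was 0.66 ± 0.11 at 29 °C (adjusted p = 0.000255) and 0.56 ± 0.11 at room temperature (adjusted p = 0.0423). An exact permutation of the room-temperature libraries, two-sided, gave p = 0.0286, which 4 against 4 cannot undercut. Housing called it in neither genotype (-0.01 ± 0.11 in KO and -0.10 ± 0.11 in WT), nor did the interaction (0.10 ± 0.16, adjusted p = 0.691). The 29 °C call passed under every alternative tried. At room temperature the log2 fold change stayed between 0.51 and 0.58, while the adjusted p missed the threshold in 17 of 25 alternatives and reached 0.501.

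Rrp8, which methylates a base of the large subunit's RNA and in mammals also acts in silencing of ribosomal DNA, measured 17.7, 17.4, 15.6 and 16.0 CPM in KO and 11.6, 12.0, 11.2 and 12.3 CPM in WT at room temperature. No libraries overlapped (0.50 ± 0.10, adjusted p = 0.0406). At 29 °C it measured 12.2, 12.4 and 11.1 CPM in KO and 9.30, 9.10, 8.92 and 11.3 CPM in WT, with WT replicate 4 above the lowest KO library (0.30 ± 0.10, adjusted p = 0.0239). Both genotypes were lower at 29 °C (-0.49 ± 0.10 in KO, adjusted p = 0.00113, and -0.29 ± 0.10 in WT, adjusted p = 0.0128). The room-temperature fold change stayed between 0.47 and 0.52, while its adjusted p missed the threshold in 16 of 25 alternatives and reached 0.501. The room-temperature call of at least 1 of Rpf2 and Rrp8 was lost without any 1 library other than KO at room temperature replicate 3 and WT at 29 °C replicate 4. Both were lost without any 1 of KO at room temperature replicates 1, 2 and 4, the 4 WT replicates at room temperature, KO at 29 °C replicate 2 and WT at 29 °C replicate 2. The 29 °C call of Rrp8 was lost without KO replicate 1 or 2 or WT replicate 1, 2 or 3 at 29 °C or KO at room temperature replicate 3 (0.24 to 0.28, adjusted p = 0.0519 to 0.0824). Exons of Ilk on the other strand cover 9.98% of the exonic bases of Rrp8.

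Nop2, a methyltransferase of the large subunit's RNA, measured 24.5, 27.3 and 28.4 CPM in KO and 20.1, 19.5, 19.7 and 22.2 CPM in WT at 29 °C (0.39 ± 0.10, adjusted p = 0.0052). It measured 33.2, 27.8, 34.8 and 27.9 CPM in KO and 23.6, 25.9, 24.8 and 21.7 CPM in WT at room temperature, with no overlap at either temperature (0.36 ± 0.10 at room temperature, adjusted p = 0.139). Its 29 °C call was lost without the libraries with muscle transcripts (0.17, adjusted p = 0.456). The 29 °C calls of Nol8 (0.41 ± 0.16, adjusted p = 0.046) and Nop16 (0.26 ± 0.10, adjusted p = 0.047) lay at the threshold. With any 1 library left out, their adjusted p reached 0.184 and 0.152, both without KO at 29 °C replicate 3. Nol8 kept its call without KO replicate 1 or WT replicate 3 or 4 at 29 °C or KO replicate 2 or WT replicate 1 or 2 at room temperature, and Nop16 without KO replicate 2 or WT replicate 4 at 29 °C. Rrp1 and its relative Rrp1b, both large-subunit factors, moved with housing in WT (0.25 ± 0.08, adjusted p = 0.0133, and 0.59 ± 0.13, adjusted p = 0.00068). Rrp1 averaged 70.2 ± 3.59 CPM in KO and 80.2 ± 5.74 CPM in WT at 29 °C, and 78.8 ± 4.30 CPM in KO and 67.4 ± 6.25 CPM in WT at room temperature. Its genotype differences, neither of them called, had opposite signs (-0.19 ± 0.09 and 0.23 ± 0.08), and the interaction passed (-0.42 ± 0.12, adjusted p = 0.0182). That call was lost without KO at 29 °C replicate 1 (adjusted p = 0.0547) or KO at room temperature replicates 2 and 4 (0.0828), and the WT housing call of Rrp1 without WT at room temperature replicate 2 (adjusted p = 0.0519). Noc2l, whose yeast counterpart accompanies large-subunit precursors, was higher at 29 °C in both genotypes (0.52 ± 0.08, adjusted p = 6.34e-05, in KO and 0.46 ± 0.07, adjusted p = 3.58e-05, in WT) and was called in neither genotype comparison. Exons of Samd11 on the other strand cover 20.9% of its exonic bases.

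**Figure D3:**
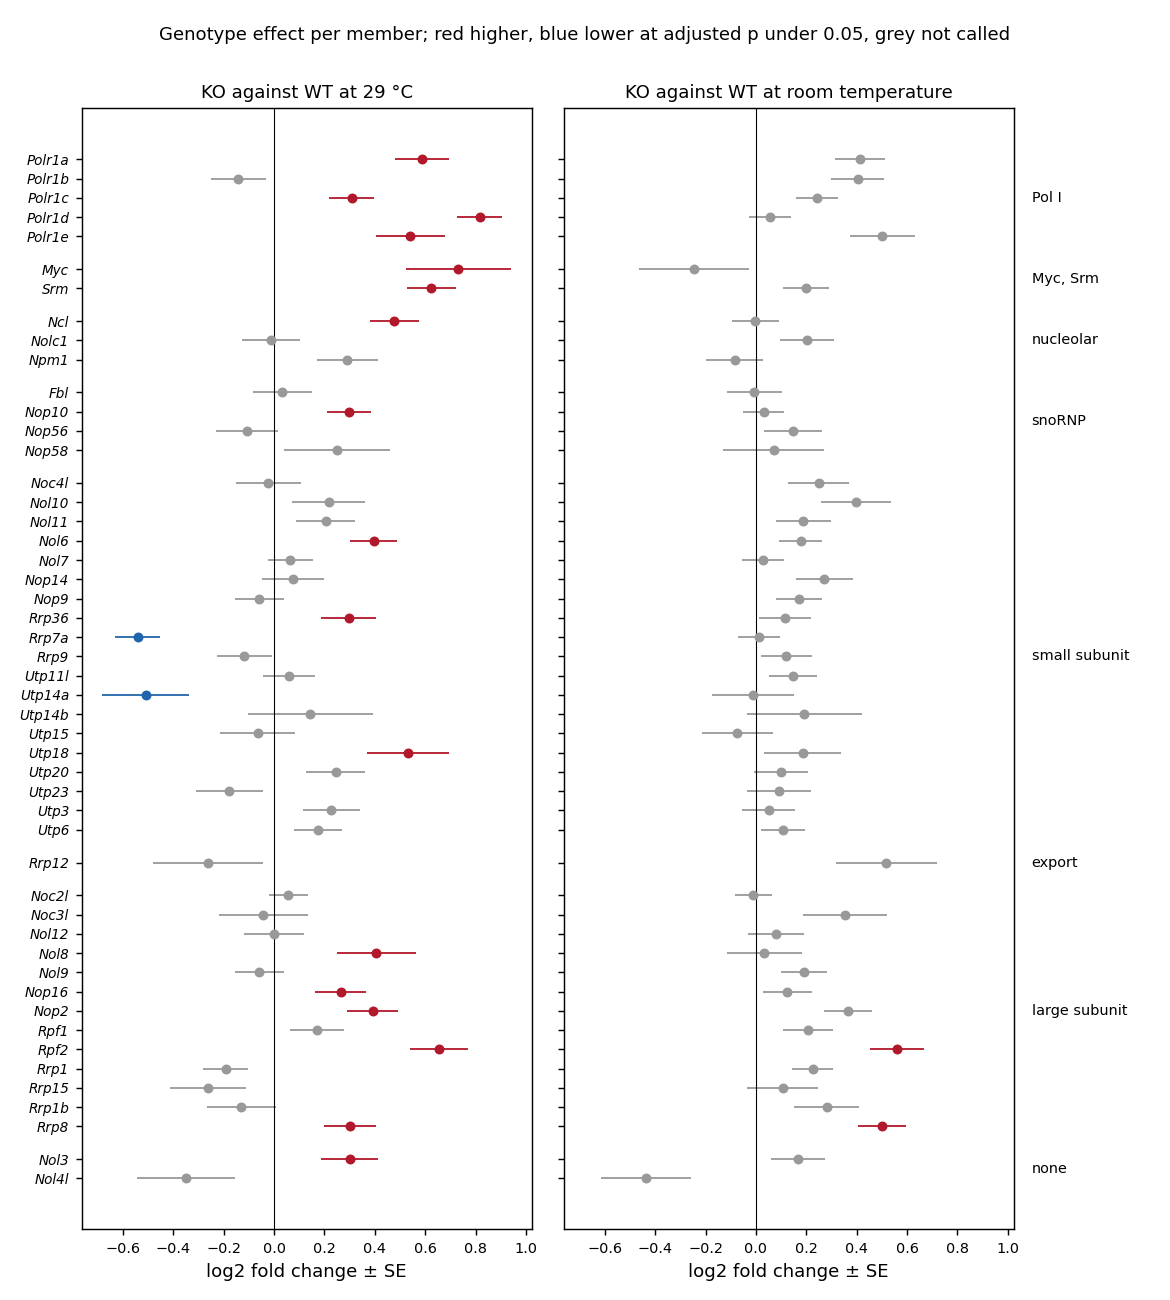
Log2 fold change ± SE (horizontal axis) of each of the 49 members for KO against WT at 29 °C (left) and at room temperature (right), grouped by role. Red points are called higher, blue points called lower and grey points not called; 17 are red and 2 blue at 29 °C, and Rpf2 and Rrp8 are red at room temperature, where 41 points lie above 0.

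No comparison called 16 of the 49 members, and 33 were called in at least 1. The share of all genes called in at least 1 comparison was not counted. Housing in WT alone called 55.1% of the members, against 68.8% of all genes, so the count of 33 cannot be read as particular to the members. Those 16 were Fbl, Noc3l, Nol10, Nol12, Nol4l, Nol7, Nolc1, Nop14, Nop9, Rpf1, Rrp12, Rrp15, Utp11l, Utp14b, Utp20 and Utp6, with pairwise log2 fold changes from -0.50 to 0.52. The export factor Rrp12 measured 10.1, 10.5 and 16.6 CPM in KO and 9.61, 14.6, 17.1 and 18.1 CPM in WT at 29 °C, and 21.5, 15.3, 17.4 and 15.9 CPM in KO and 11.5, 14.8, 12.7 and 9.96 CPM in WT at room temperature. Every KO library lay above every WT library at room temperature, but no comparison called it (0.52 ± 0.20 at room temperature, adjusted p = 0.356, and interaction -0.78 ± 0.30, adjusted p = 0.0618). Of the 2 members without an assigned role in ribosomes, Nol3 is a repressor of cell death. It was lower at 29 °C in both genotypes (-0.58 ± 0.12, adjusted p = 0.000821, in KO and -0.71 ± 0.11, adjusted p = 2.08e-05, in WT). The KO call was lost without the libraries with muscle transcripts (-0.50, adjusted p = 0.0526). Its genotype call at 29 °C was weak (0.30 ± 0.11, adjusted p = 0.0424) and was lost without KO replicate 1, WT replicate 2, 3 or 4 at 29 °C, KO replicate 1, 3 or 4 or WT replicate 1, 2 or 3 at room temperature (adjusted p = 0.0505 to 0.191). Exons of a gene on the other strand cover 48.2% of its exonic bases. Nol4l had 1 KO library above its group mates at room temperature, though not by enough to be among the flagged results below. The values were 34.1, 14.8, 20.1 and 19.1 CPM in KO against 28.7, 33.4, 28.2 and 28.9 CPM in WT (-0.44 ± 0.18, adjusted p = 0.388). Without that library, replicate 1, it was called lower in KO (adjusted p = 0.0149), the count of lower members at room temperature then being 1.

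The housing comparison asks how the same genes differ between brown fat of mice kept at 29 °C and at room temperature. In KO, 9 members were higher and 5 lower at 29 °C than at room temperature (18.4% and 10.2%, against 24.3% and 21.7% of all genes), the lower ones being Nol11, Nol3, Nol6, Polr1d and Rrp8. In WT, 15 were higher and 12 lower (30.6% and 24.5%, against 35.9% and 32.8% of all genes). The median log2 fold changes were -0.04 in KO and 0.02 in WT, against 0.04 and 0.06 over all genes, and the median absolute changes were 0.17 in KO and 0.28 in WT, against 0.40 and 0.68. The WT median was -0.07 without WT at 29 °C replicate 4. Without the libraries with muscle transcripts 4 were higher and 2 lower in KO, and without KO at room temperature replicate 3 the count of lower members in KO was 8. The comparisons of 1 genotype between temperatures and those of 1 temperature between genotypes share libraries, so their values are given side by side and not as separate evidence.

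**Figure D4:**
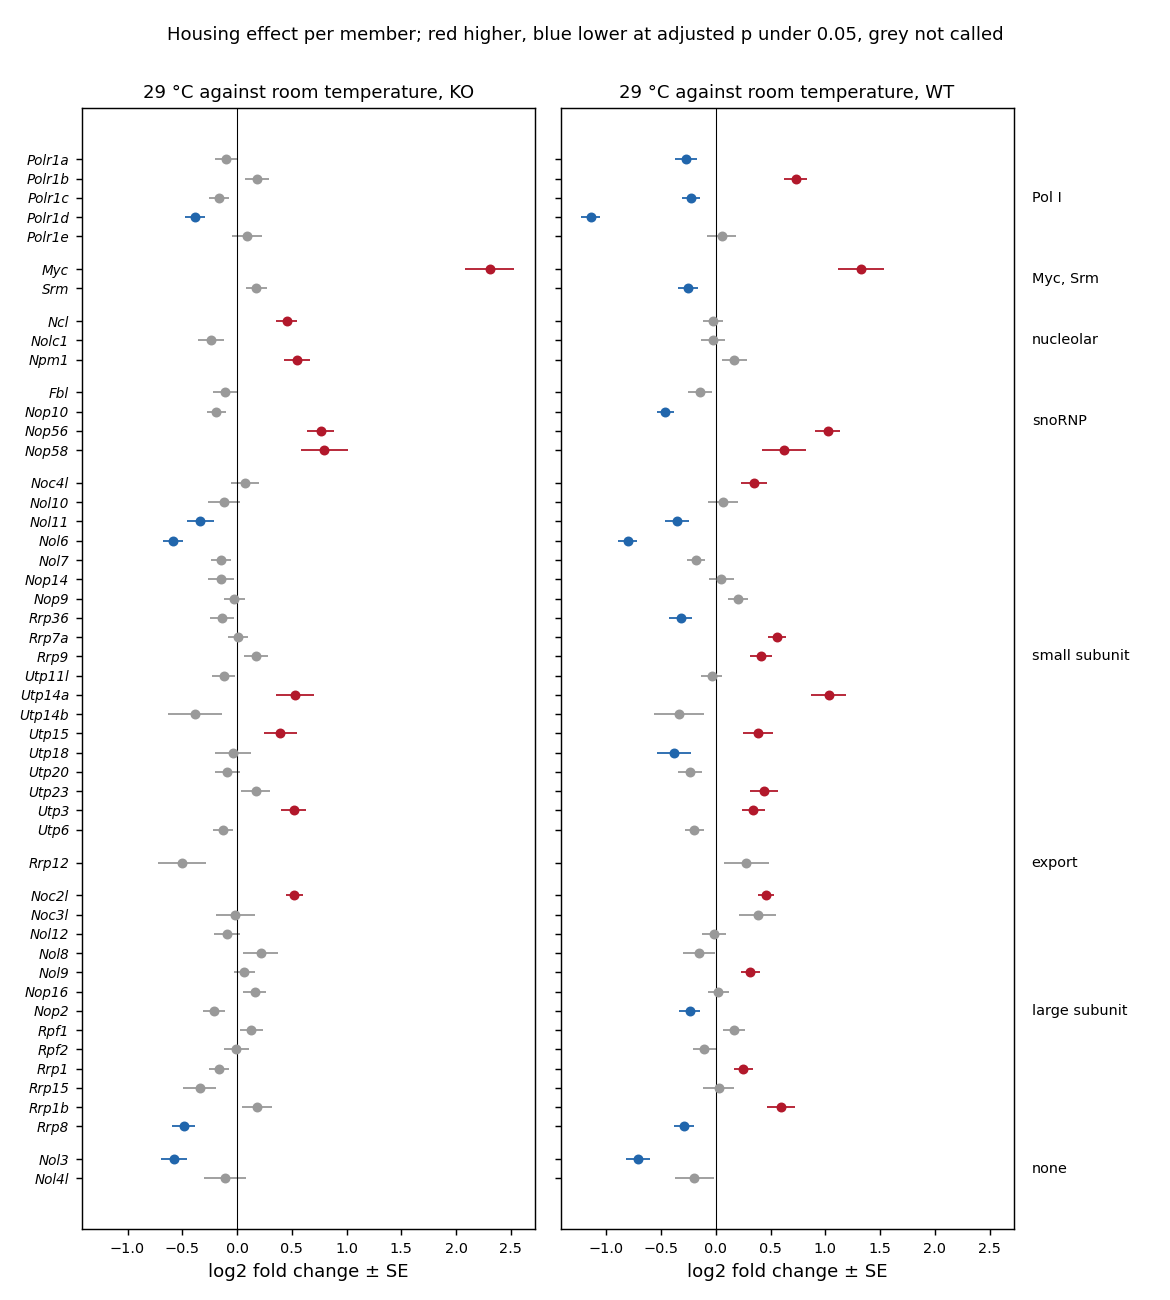
Log2 fold change ± SE (horizontal axis) of each of the 49 members for 29 °C against room temperature in KO (left) and WT (right), grouped by role; red points are called higher, blue points lower and grey points not called. Myc, Nop56 and Nop58 lie to the right in both genotypes and Nol6 and Nol3 to the left, while Polr1b and Rrp7a, whose interaction passed, lie at 0.18 and 0.01 in KO and at 0.73 and 0.56 in WT.

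The interaction, which tests whether the genotype effect differs between temperatures, called 4 members higher (Myc, Ncl, Polr1d and Srm, 8.16%, against 16% of all genes) and 3 lower (Polr1b, Rrp1 and Rrp7a, 6.12%, against 12.3% of all genes). The members' median was 0.03, against 0.01 over all genes. The count of higher members was 2 without KO at 29 °C replicate 1 and 1 without KO at room temperature replicate 3, and that of lower members 6 without WT at 29 °C replicate 1. Without KO at room temperature replicates 2 and 4, Rrp7a was the 1 lower member.

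Summed over the 49 members, the level was 1346 to 1404 CPM in KO and 1100 to 1313 CPM in WT at 29 °C, and 1340 to 1451 CPM in KO and 1249 to 1294 CPM in WT at room temperature. By this sum KO stood above WT in every library at each temperature. The median log2 CPM over members ran from 4.14 to 4.25 in KO and 3.95 to 4.12 in WT at 29 °C. At room temperature that median overlapped, at 4.04 to 4.21 in KO and 3.97 to 4.07 in WT. Ncl, Npm1 and Polr1d make up much of the sums. Without them the ranges were 950.0 to 996.8 CPM in KO and 846.5 to 977 CPM in WT at 29 °C, which overlap, and 987.8 to 1038 CPM in KO and 886.6 to 927.3 CPM in WT at room temperature, which do not. Per kilobase of exon in WT at room temperature, the mean level ran from 65.6 CPM per kb for Nop10 and 51.1 for Polr1d to 0.915 for Myc, 0.769 for Rrp1b and 0.404 for Utp14b. The coefficient of variation between libraries of a group had a median over members of 8.37% in KO and 11.5% in WT at 29 °C and 9.29% in KO and 6.69% in WT at room temperature.

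Other genes of the same pathways were counted from lists chosen with earlier results of these data known. Of 33 further small-subunit processome genes, 15 were higher and 2 lower in KO at 29 °C, with a median of 0.14, or 8 and 0 with a median of 0.05 without the libraries with muscle transcripts. Beside this and the following counts at 29 °C with all libraries stand 24.7% higher and 20% lower of all genes tested. The setting without the libraries with muscle transcripts leaves 1 KO library at 29 °C and called fewer of all genes as well. Its counts, here and below, cannot be read against those shares. Rcl1, a processome protein that helps to cut the precursor, was higher in KO, with 22.8 ± 6.24 CPM in KO and 7.95 ± 1.32 CPM in WT (1.52 ± 0.17, adjusted p = 6.53e-06), as was Pno1, with 47.6 ± 5.05 CPM in KO and 24.7 ± 3.44 CPM in WT (0.95 ± 0.11, adjusted p = 5.08e-06). At room temperature Rcl1 averaged 27.3 ± 4.19 CPM in KO and 27.8 ± 2.57 CPM in WT, and Pno1 54.1 ± 3.37 CPM in KO and 51.4 ± 2.26 CPM in WT. Of 46 further large-subunit genes 10 were higher and 7 lower (median 0.10), or 0 and 6 (median 0.00) without the libraries with muscle transcripts. Among them were the helicase Ddx24 (0.43 ± 0.08) and the giant ATPase Mdn1 (-0.94 ± 0.16), which strips factors from large-subunit precursors. Mdn1 averaged 19.2 ± 2.19 CPM in KO and 37.0 ± 7.18 CPM in WT at 29 °C.

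Of 15 remaining subunits and factors of RNA polymerase I, 2 were higher and 7 lower in KO at 29 °C, with a median of -0.28, and 6 did not pass. Without the libraries with muscle transcripts 0 were higher and 6 lower. Taf1a, of the factor that selects the ribosomal DNA promoter, averaged 5.09 ± 1.12 CPM in KO and 9.06 ± 0.628 CPM in WT (-0.83 ± 0.18, adjusted p = 0.00121). Polr2l, a small subunit that all nuclear RNA polymerases share, averaged 54.0 ± 3.60 CPM in KO and 72.9 ± 7.27 CPM in WT (-0.43 ± 0.09, adjusted p = 0.000913). Among 21 genes of RNA polymerase III, 3 were higher and 4 lower (1 and 2 without those libraries), with Gtf3c3 up (0.68 ± 0.10) and Brf1 down (-0.37 ± 0.08). Of 15 genes of the RNA exosome, which trims precursor RNA, 3 were higher and 1 lower (2 and 0 without those libraries), among them its catalytic subunit Dis3 (0.48 ± 0.10) and Exosc1 (0.40 ± 0.10). Among 11 further snoRNP genes 2 were higher and 2 lower, with the assembly ATPase Ruvbl2 up (0.48 ± 0.09) and the assembly factor Znhit6 down (-0.67 ± 0.11).

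Of 12 genes of the Myc network, 2 were higher in KO at 29 °C and 2 lower (0 and 2 without the libraries with muscle transcripts), among them the Myc antagonist Mxi1 (0.50 ± 0.12) and the glucose-sensing relative Mlxip (-0.58 ± 0.11). Of 13 polyamine genes 1 was higher and 3 lower (1 and 0 without those libraries). The higher one was Eif5a, the translation factor that spermidine is used to modify, with 300.8 ± 13.5 CPM in KO and 195.3 ± 7.27 CPM in WT (0.62 ± 0.08, adjusted p = 1.8e-05). Spermine oxidase, Smox, was lower (-0.47 ± 0.12). Over these 8 lists, 166 genes in all, 38 were higher and 28 lower in KO at 29 °C, against 14 and 18 without the libraries with muscle transcripts. At room temperature edgeR called 0 higher and 1 lower, Mxd1 of the Myc network, against 0.053% and 0.186% of all genes. DESeq2 and limma-voom gave the same numbers of calls. The Mxd1 call was lost without KO at room temperature replicates 2 and 4, and also without the libraries with muscle transcripts. At an unadjusted p under 0.05, edgeR gave 21 higher and 5 lower, against 6.01% and 5.12% of all genes.

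The 76 cytosolic ribosomal protein genes, the structural parts that these factors assemble, differed from the 49 members. In KO at 29 °C 5 were higher and 34 lower than in WT (median -0.19), or 2 and 14 without the libraries with muscle transcripts. At room temperature the genotype comparison called 0 in either direction by edgeR, DESeq2 and limma-voom, and 0 had an unadjusted p under 0.05. Between temperatures the ribosomal proteins were higher at 29 °C, 67 of 76 in KO with 0 lower by any of the 3 tools or at an unadjusted p under 0.05 (median 0.54), and 72 higher and 2 lower in WT (median 0.73). Of all genes, 24.3% were higher and 21.7% lower in KO and 35.9% higher and 32.8% lower in WT. Marker lists of other cell types also differed with housing. In WT the summed endothelial markers had a median of 1683 CPM at 29 °C and 581.3 CPM at room temperature, and the macrophage markers 170.7 CPM at 29 °C and 67.1 CPM at room temperature. In KO the endothelial medians were 665.9 CPM at 29 °C and 504.4 CPM at room temperature, and the macrophage medians 268.2 CPM at 29 °C and 78.1 CPM at room temperature. Their part in the housing values was not tested. The members' medians beside these were -0.04 in KO and 0.02 in WT. In the interaction 2 of the 76 ribosomal protein genes were higher and 19 lower, against 4 and 3 of the 49 members. The shares of all genes were 16% higher and 12.3% lower. Those ribosomal protein counts were 2 and 6 without the libraries with muscle transcripts and 0 and 14 without KO at room temperature replicates 2 and 4. Ribosomal protein genes have many processed pseudogenes, among which the authors' counting could split reads.

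**Figure D5:**
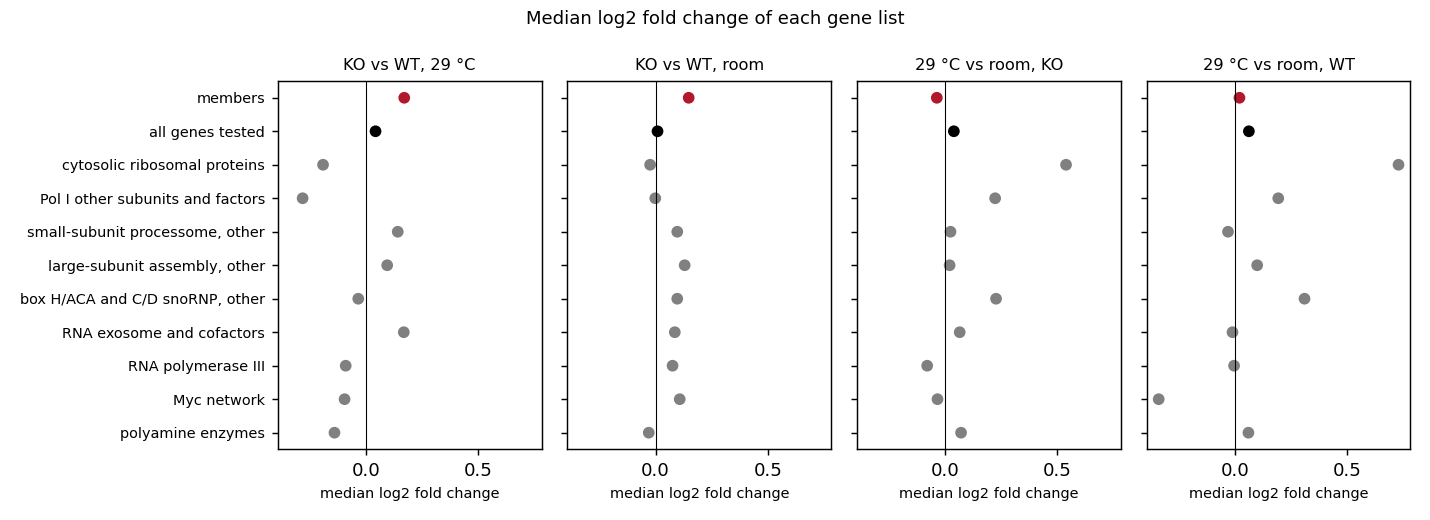
Median log2 fold change (horizontal axis) of the 49 members (red), all 15083 genes tested (black) and 9 lists of related genes (grey) in the 4 pairwise comparisons. At 29 °C against room temperature the ribosomal proteins lie at 0.54 in KO and 0.73 in WT, whereas the members lie at -0.04 in KO and 0.02 in WT.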

How the data were processed

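The authors deposited RSEM expected counts per gene symbol and library for RNA of mouse brown adipose tissue. Per the submitters' processing notes, STAR 2.7.10a, RSEM 1.2.28, DESeq2 1.3.40 (as written there) and mm10 were used; annotation and strandedness are not given in the sources used here. All 15 columns matched a sample by name, and 7.26% of entries had decimals. Expected counts were rounded. Genes passed edgeR's filterByExpr with a minimum count of 10 (15083 genes), were scaled by TMM and fitted as 4 groups with 11 residual degrees of freedom by edgeR 4.0.16 (robust quasi-likelihood, R 4.3.3). P-values were Benjamini-Hochberg adjusted over all genes within each comparison, and a gene was called under 0.05. The fit was tested on simulated data. Members and lists were chosen with earlier results of these data known. Named genes are the 10 members chosen by name, 8 with the smallest p per comparison, retrogene copies, members called at room temperature and 2 per related list. Other genes named (Mxd1, and members such as Rrp36, Nol8, Nop16, Nol11 and Utp15) fall outside this and were named after their values were seen. Alternatives were RLE size factors, no filter, a stricter filter (1 CPM in 4 libraries), a replicate block, DESeq2 1.42.0, limma-voom 3.58.1, mitochondrial genes left out, only the libraries compared, a 1.5-fold limit, and libraries left out. Positions, exon lengths and overlaps came from GENCODE (GRCm38).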

Additional observations from a re-analysis of the deposited data

Results flagged for a closer look

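In 9 cases, 1 library of 4 lay far from its group mates, judged by its gap to the nearest over the group's range; chance marks about 1 in 20 groups, and 147 groups were examined. In WT at 29 °C these were Nol4l at 23.6 CPM and Nol9 at 14.6 CPM, both low in replicate 1, Nop9 at 18.2 CPM, high in replicate 2, and Polr1e at 4.92 CPM, Rpf1 at 14.7 CPM and Rrp8 at 11.3 CPM, each high in replicate 4. Nol4l at 33.4 CPM was high and Rrp36 at 9.62 CPM low in WT at room temperature replicate 2. Srm at 19.0 CPM was low in KO at room temperature replicate 3. Groups of 3, as KO at 29 °C, were not examined in this way.

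The genotype effect differed between 29 °C and room temperature, by the interaction, for 7 members. Its log2 value was 0.98 for Myc, 0.48 for Ncl, 0.76 for Polr1d and 0.42 for Srm, and -0.55 for Polr1b, -0.42 for Rrp1 and -0.55 for Rrp7a. Of these, Polr1d passed under every alternative tried, and Rrp7a under every one except the 1.5-fold limit.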

How the results depend on the processing

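For KO against WT at 29 °C, the 17 higher members were 10 with no filter, 4 without the libraries with muscle transcripts, 9 with only the libraries compared and 5 over 1.5-fold; the 2 lower were 0 over 1.5-fold. All genes called were 4229 without the libraries with muscle transcripts and 4182 over 1.5-fold, against 6747, and the members' median was 0.061 in the first. At room temperature, the 2 higher members were 0 with RLE, no filter, the replicate block, either set of libraries left out or a 1.5-fold limit, 4 with DESeq2 and 1 with limma-voom. All genes called were 222 with DESeq2, 13 without the libraries with muscle transcripts and 5 without KO replicates 2 and 4, against 36. For housing in KO, without the libraries with muscle transcripts 4 were higher, 2 lower and 4129 of all genes were called, and over 1.5-fold 3, 1 and 4374. For housing in WT, 6 were higher and 3 lower over 1.5-fold, and 7 lower without mitochondrial genes. In the interaction 2 were higher both without the libraries with muscle transcripts and over 1.5-fold, and 1 was lower without KO at room temperature replicates 2 and 4 and 0 over 1.5-fold; the median was -0.059 in the first. The cause was not tested. With any 1 library left out, higher and lower members ran from 11 to 21 and 1 to 3 (KO against WT, 29 °C), 0 to 2 and 0 to 1 (room temperature), 7 to 9 and 4 to 8 (housing, KO), 14 to 19 and 8 to 14 (housing, WT, median -0.071 to 0.066), and 1 to 6 and 2 to 6 (interaction). At room temperature all genes called ran from 5 to 60, with 60 and 58 without KO replicate 1 or 3, 5 without KO replicate 2 or 4, 7, 16 and 11 without WT replicate 2, 3 or 4, and 19 without KO at 29 °C replicate 2. No call changed sign. The replicate block gave 17 and 2, 0 and 0, 9 and 4, 15 and 12, and 4 and 3 in the same order. Same-numbered libraries correlated from -0.276 to 0.33. Libraries with different numbers were not correlated, so these values cannot tell whether the numbers pair libraries. The 3 KO libraries at 29 °C limit that comparison.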
